A study of Mus musculus with 10 samples.

Results

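MHC class I antigen presentation was described here through 10 genes in mouse macrophages grown from bone marrow, namely H2-K1, H2-D1, B2m, Tap1, Tap2, Tapbp, Erap1, Psmb8, Psmb9 and Nlrc5. They were taken as a list of symbols and matched to the Ensembl IDs of the deposited count table, which holds 54307 genes. All 10 were matched, and all 10 were among the 12411 genes with enough counts to be tested. MHC class I molecules hold short peptides at the cell surface, where CD8 T cells read them. The proteasome cuts proteins into peptides, the TAP transporter carries these into the endoplasmic reticulum, and a loading complex places them on a heavy chain bound to its light chain. Macrophages make this machinery all the time, and interferons raise it further.

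The knock-in group was 5 hWDFY3KI/KI mice, which carry a human WDFY3 knock-in as KI/KI and are described in the labels as overexpressing human WDFY3. The control group was 5 wild-type mice. WDFY3 (also ALFY) is a scaffold that helps autophagy take up protein aggregates. All 10 mice were males of 6 to 8 weeks, and all cultures were fed with 20% medium conditioned by L-929 fibroblasts until day 7. Poly(A)+ RNA was sequenced with 100-bp paired-end reads. The labels do not say from which locus or promoter the human gene is expressed, nor the mouse strain or its H-2 haplotype, which sets the class I alleles.

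Depth was 15.2 to 22.9 M estimated counts in the KI/KI libraries and 14.6 to 36.4 M in the control libraries. Levels below are CPM, the counts scaled to a library of 1 M. Macrophage markers were high in every library, with a summed level of 30059 to 37070 CPM in KI/KI and 24013 to 34907 CPM in controls over 8 markers. Most of this sum was Lyz2, the lysozyme of myeloid cells. Adgre1, which encodes F4/80, was at 808 to 847 CPM in KI/KI and 859.9 to 1042 CPM in controls. The groups did not overlap, as for 1.32% of all tested genes, and the edgeR adjusted p was 0.548. T or NK cell markers summed to 2.39 to 3.51 CPM in KI/KI and 2.76 to 3.61 CPM in controls, with 1 of 5 markers tested. Most of this sum was the tested marker, Klrb1c, at 2.15 to 3.38 CPM in KI/KI and 2.40 to 3.44 CPM in controls. Cd3d, a T cell receptor subunit, was at 0 in 5 libraries, and Klrb1c in none. Dendritic cell markers summed to 2.19 to 4.46 CPM in KI/KI and 1.68 to 3.66 CPM in controls, and B cell markers to 1.58 to 3.79 CPM in KI/KI and 2.41 to 4.68 CPM in controls. Stromal fibroblast markers, such as the collagen genes, stood apart in 3 libraries. They summed to 86.5 CPM in KI/KI mouse 4 and to 2.20 to 21.2 CPM in the remaining KI/KI libraries. In control mice 1 and 4 they summed to 145 and 148 CPM, and in the remaining controls to 5.28 to 10.2 CPM. Results below are also given without these 3 stromal-rich libraries where that turns the direction of a gene, a ratio or a list's median. The counts are of mouse genes, so the human transcript has no count of its own. Whether any of its reads were counted under mouse Wdfy3 was not tested. Mouse Wdfy3 was at 111 to 127 CPM in KI/KI and 99.96 to 121 CPM in controls, with an adjusted p of 0.811 by edgeR's quasi-likelihood test with Benjamini-Hochberg adjustment.

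Of the 10 genes, 7 lie in the MHC region of chromosome 17 (coordinates are those of GENCODE M21 on GRCm38). H2-K1 (ENSMUSG00000061232) spans 33996017 to 34000347 on the minus strand and H2-D1 (ENSMUSG00000073411) spans 35262730 to 35267499 on the plus strand. Tapbp (ENSMUSG00000024308) lies at 33915899 to 33929292, Psmb9 (ENSMUSG00000096727) at 34181987 to 34187764, Tap1 (ENSMUSG00000037321) at 34187553 to 34197225, Psmb8 (ENSMUSG00000024338) at 34197721 to 34201454 and Tap2 (ENSMUSG00000024339) at 34203527 to 34216321. The other genes lie elsewhere: B2m (ENSMUSG00000060802) on chromosome 2 at 122147686 to 122153083, Nlrc5 (ENSMUSG00000074151) on chromosome 8 at 94434356 to 94527272, and Erap1 (ENSMUSG00000021583) on chromosome 13 at 74639568 to 74693201.

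The sequences upstream of the transcription start are shown for H2-K1, H2-D1 and B2m, the genes whose ratios are compared below, and for the stretch that Tap1 and Psmb9 share. They are RefSeq sequences of GRCm38.p6, written 5′ to 3′ along the gene's strand (for Tap1-Psmb9, along the strand of Tap1), and each ends at the base before the start in RefSeq. GENCODE M21 has transcripts of H2-D1, Tap1 and Psmb9 that start further upstream, so that Tap1 and Psmb9 overlap there. H2-K1 is chr17:34000348-34000597 (minus strand), H2-D1 is chr17:35262844-35263093 (plus strand), B2m is chr2:122147437-122147686 (plus strand), and the stretch between the starts of Tap1 and Psmb9 is chr17:34187331-34187555. Capitals mark matches on either strand to a kappaB-type motif (GGG and ATTCCC with 1 base of any kind between them), to the core of an interferon regulatory factor site (AANNGAAA) and to the core of an interferon-stimulated response element (GAAA, 2 bases of any kind, GAAA).
H2-K1: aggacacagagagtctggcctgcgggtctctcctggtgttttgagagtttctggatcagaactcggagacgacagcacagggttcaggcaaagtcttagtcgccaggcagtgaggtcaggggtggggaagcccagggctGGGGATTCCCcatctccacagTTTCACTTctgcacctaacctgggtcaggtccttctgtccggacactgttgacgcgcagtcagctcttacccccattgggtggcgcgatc
H2-D1: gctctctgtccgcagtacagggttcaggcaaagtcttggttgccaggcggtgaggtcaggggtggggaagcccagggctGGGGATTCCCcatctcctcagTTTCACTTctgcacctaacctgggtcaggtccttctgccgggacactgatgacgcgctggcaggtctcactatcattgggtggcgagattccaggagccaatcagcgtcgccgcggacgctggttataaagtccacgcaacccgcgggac
B2m: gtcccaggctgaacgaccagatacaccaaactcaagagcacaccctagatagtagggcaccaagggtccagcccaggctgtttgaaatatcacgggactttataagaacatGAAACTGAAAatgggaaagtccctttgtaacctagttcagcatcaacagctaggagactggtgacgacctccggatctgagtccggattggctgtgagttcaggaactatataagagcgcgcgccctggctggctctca
Tap1-Psmb9: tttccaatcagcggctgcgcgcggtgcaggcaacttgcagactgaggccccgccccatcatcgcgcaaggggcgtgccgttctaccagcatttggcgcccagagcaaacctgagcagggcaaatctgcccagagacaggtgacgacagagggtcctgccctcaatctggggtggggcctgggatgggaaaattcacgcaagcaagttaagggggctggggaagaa

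The upstream windows of the heavy chain genes were alike. Of 177 aligned positions, 161 were identical, or 91%, and the longest identical stretch was 47 bp. Both windows held a kappaB match followed, after 11 bases, by an interferon regulatory factor core. In H2-K1 the kappaB match lay 111 to 102 bases before the start, and in H2-D1 it lay 171 to 162 bases before. B2m held no match to the kappaB motif as written above, and other forms of a kappaB site were not searched. Its response element core lay 139 to 130 bases before the start and overlapped its interferon regulatory factor core. None of these 3 motifs matched between Tap1 and Psmb9. Of 32841 upstream windows of 250 bp in the same table, 0.152% held the kappaB motif, 21.3% the interferon regulatory factor core and 2.98% the response element core. Among the 8 of the 10 genes with a window in the table, 2, 3 and 1 held these motifs in that order. The 2 with the kappaB motif were H2-K1 and H2-D1, whose windows were alike, so they are not separate cases. The count also depends on the form in which the motif was written, and enrichment was not tested. A match describes letters and is not a bound site.

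The level of these genes per kilobase of their longest transcript, over all 10 libraries, ran from B2m through the heavy chains to the regulator Nlrc5. B2m averaged 2704 CPM per kb, H2-D1 1381, H2-K1 379, Tapbp 100.4 and Psmb8 45.9 CPM per kb. Erap1 averaged 16.4, Tap2 14.8, Tap1 9.26, Psmb9 6.83 and Nlrc5 2.83 CPM per kb. The ranges of neighbours in this order overlapped over the 10 libraries for Erap1 with Tap2 and for Tap1 with Psmb9, and for no other neighbours. With the union of exons as length, Tap2 came before Erap1, at 13.5 against 12.7 CPM per kb.

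None of the 10 genes differed between the genotypes past the threshold, an adjusted p under 0.05 by edgeR's quasi-likelihood test with Benjamini-Hochberg adjustment over all tested genes. Of all 12411 tested genes, 10 did, or 0.0806%. At an unadjusted p under 0.05, edgeR reached 1 of the 10 genes, B2m, and 6.21% of all tested genes. DESeq2 reached 1 of the 10 genes at that p, and its share over all genes was not counted. DESeq2 called 0 of the 10 genes at an adjusted p under 0.05, and 0.35% of the genes it tested. The log2 fold changes of KI/KI over control ran from -0.16 for B2m to 0.17 for H2-D1, with a median of 0.05, against a median of -0.0046 over all tested genes. They were positive for 7 genes and negative for 3, and 48.3% of all tested genes were positive. Among the 95% intervals of the 10 genes, the lowest limit was -20.0% (Psmb9) and the highest was 28.3% (Tap1). Erap1 had the narrowest interval, from -8.57% to 8.27%.

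**Figure D1:**
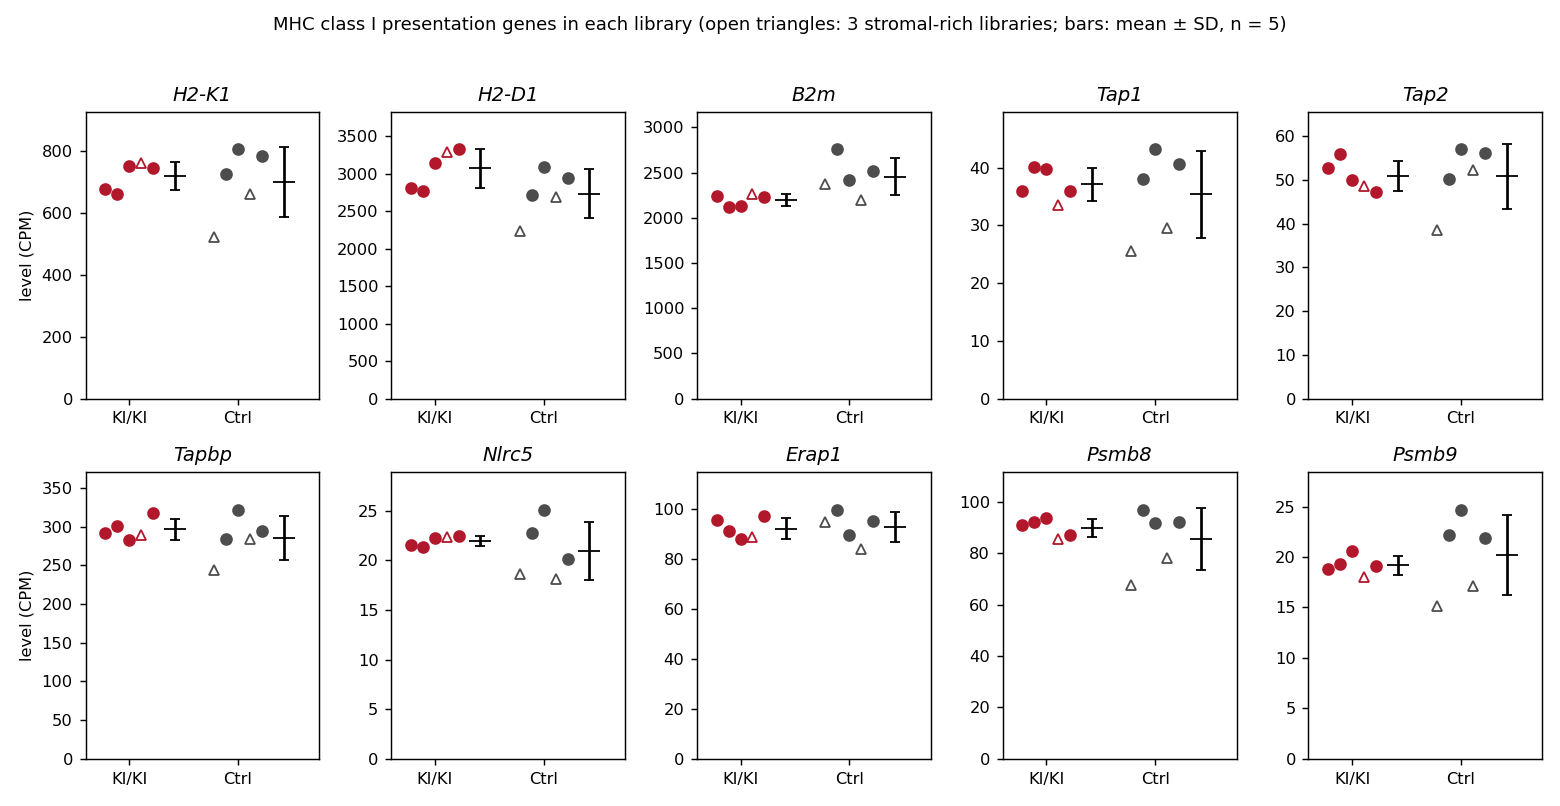
Level of each of the 10 genes in CPM (vertical axis, from 0) in every KI/KI library (red, left) and control library (grey, right), with the mean and SD of 5 libraries as bars. Open triangles are the 3 stromal-rich libraries. The groups overlap for all 10 genes, and the controls spread more widely than the KI/KI libraries.

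B2m encodes the light chain that every classical class I molecule needs to reach the surface. Its level was 2241, 2120, 2130, 2261 and 2229 CPM in KI/KI mice 1 to 5, against 2376, 2757, 2423, 2199 and 2522 CPM in control mice 1 to 5. All 5 KI/KI libraries were below the control median and 4 controls were above the highest KI/KI library, but control 4 lay among the KI/KI values. The mean was 2196 ± 66.3 CPM in KI/KI and 2455 ± 205 CPM in controls (SD, n = 5 each). The log2 fold change was -0.16 ± 0.06 (SE), or 10.5% lower in KI/KI, with an unadjusted p of 0.0224 and an adjusted p of 0.722 by edgeR's quasi-likelihood test with Benjamini-Hochberg adjustment. By that p, B2m ranked 382 of the 12411 genes.

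H2-K1 encodes the classical heavy chain H-2K, which carries the peptide groove. Its level was 679, 662, 753, 761 and 746 CPM in KI/KI mice 1 to 5, against 523, 726, 807, 662 and 786 CPM in control mice 1 to 5. The controls held both the lowest and the highest value, and the KI/KI libraries lay between them. The mean was 720 ± 46.1 CPM in KI/KI and 701 ± 114 CPM in controls (SD, n = 5 each). On the log2 scale KI/KI differed from control by 0.04 ± 0.10 (SE), with an edgeR adjusted p of 0.963.

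H2-D1 encodes the classical heavy chain H-2D. Its level was 2812, 2775, 3148, 3289 and 3324 CPM in KI/KI mice 1 to 5, against 2237, 2714, 3085, 2690 and 2948 CPM in control mice 1 to 5. All 5 KI/KI libraries were above the control median and 3 were above the highest control, with the groups overlapping in between. The mean was 3070 ± 261 CPM in KI/KI and 2735 ± 324 CPM in controls (SD, n = 5 each). The log2 fold change was 0.17 ± 0.09 (SE), with an unadjusted p of 0.0779 and an edgeR adjusted p of 0.810.

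The counts of both heavy chain genes carry an uncertainty that B2m does not. In GENCODE M21, transcripts of 20 other genes match H2-K1 and transcripts of 22 other genes match H2-D1 over at least 200 bp at 85% identity or more. The longest transcript of H2-D1 matches one of H2-K1 at 88.4% over 1515 of its 2102 bp. How Salmon shared reads among these genes cannot be seen in a count per gene, and the mice may carry other alleles than the reference. For B2m no such match was found.

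Tap1 and Tap2 encode the subunits that pair in the peptide transporter. Tap1 was at 36.0, 40.2, 39.8, 33.5 and 35.9 CPM in KI/KI mice 1 to 5, against 25.5, 38.0, 43.2, 29.6 and 40.6 CPM in control mice 1 to 5. Tap2 was at 52.7, 56.0, 50.1, 48.5 and 47.3 CPM in KI/KI mice 1 to 5, against 38.6, 50.2, 57.0, 52.1 and 56.2 CPM in control mice 1 to 5. In both genes the KI/KI values lay inside the control range, and control 1 was the lowest library. Their log2 fold changes were 0.07 ± 0.13 (SE) for Tap1 and 0.0032 ± 0.094 (SE) for Tap2, with edgeR adjusted p of 0.941 and 0.999. In the search used for the heavy chains, Tap1 and Tap2 matched each other at 87.5% over 240 bp, and how reads were shared there was not seen. The Tap1 and Psmb9 genes overlap on opposite strands over 212 exonic bp, and the sources used here do not say whether the counting used the strand.

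Tapbp encodes tapasin, which holds the empty heavy chain next to the transporter. It was at 292, 301, 282, 289.8 and 318 CPM in KI/KI mice 1 to 5, against 244, 283, 322, 284 and 295 CPM in control mice 1 to 5. Apart from the lowest control, mouse 1, the libraries of both groups were intermixed. Its log2 fold change was 0.06 ± 0.07 (SE), with an edgeR adjusted p of 0.911.

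Erap1 encodes the aminopeptidase that trims peptides in the endoplasmic reticulum to the length class I prefers. It was at 95.5, 91.3, 88.1, 88.7 and 97.3 CPM in KI/KI mice 1 to 5, against 94.6, 99.7, 89.7, 83.9 and 95.3 CPM in control mice 1 to 5. It varied least among the controls of the 10 genes, and the groups overlapped over most of their range. Its log2 fold change was -0.0073 ± 0.056 (SE), with an edgeR adjusted p of 0.991 and a 95% interval of -0.13 to 0.11. Erap1 overlaps Cast on the opposite strand over 834 exonic bp. Other class I genes also overlap genes on the opposite strand, over 904 exonic bp for Tapbp (Gm19412), 533 and 165 for Tap2 (Gm15821 and Gm20496), 498 for Psmb8 (Gm20496) and 78 for Nlrc5 (9330175E14Rik). Tapbp also overlaps Zbtb22 on the same strand over 149 exonic bp.

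Psmb8 and Psmb9 encode catalytic subunits of the immunoproteasome, the form of the proteasome that interferon induces and that favours peptides fit for class I. Psmb8 was at 90.8, 92.2, 93.6, 85.7 and 86.9 CPM in KI/KI mice 1 to 5, against 67.8, 96.9, 91.8, 78.2 and 92.2 CPM in control mice 1 to 5. Psmb9 was at 18.8, 19.3, 20.6, 18.0 and 19.1 CPM in KI/KI mice 1 to 5, against 15.1, 22.1, 24.7, 17.2 and 21.9 CPM in control mice 1 to 5. For both genes, controls 1 and 4 were below every KI/KI library; for Psmb9 the other 3 controls were above every KI/KI library. Their log2 fold changes were 0.07 ± 0.09 (SE) for Psmb8 and -0.07 ± 0.12 (SE) for Psmb9, with edgeR adjusted p of 0.906 and 0.935.

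Nlrc5 encodes the transactivator that drives transcription of classical class I genes and their partners. It was at 21.5, 21.3, 22.3, 22.3 and 22.4 CPM in KI/KI mice 1 to 5, against 18.7, 22.7, 25.1, 18.1 and 20.1 CPM in control mice 1 to 5. The KI/KI libraries were nearly level, and the controls lay on both sides of them. The mean was 21.99 ± 0.511 CPM in KI/KI and 20.96 ± 2.93 CPM in controls (SD, n = 5 each). The log2 fold change was 0.07 ± 0.09 (SE), with an edgeR adjusted p of 0.906.

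**Figure D2:**
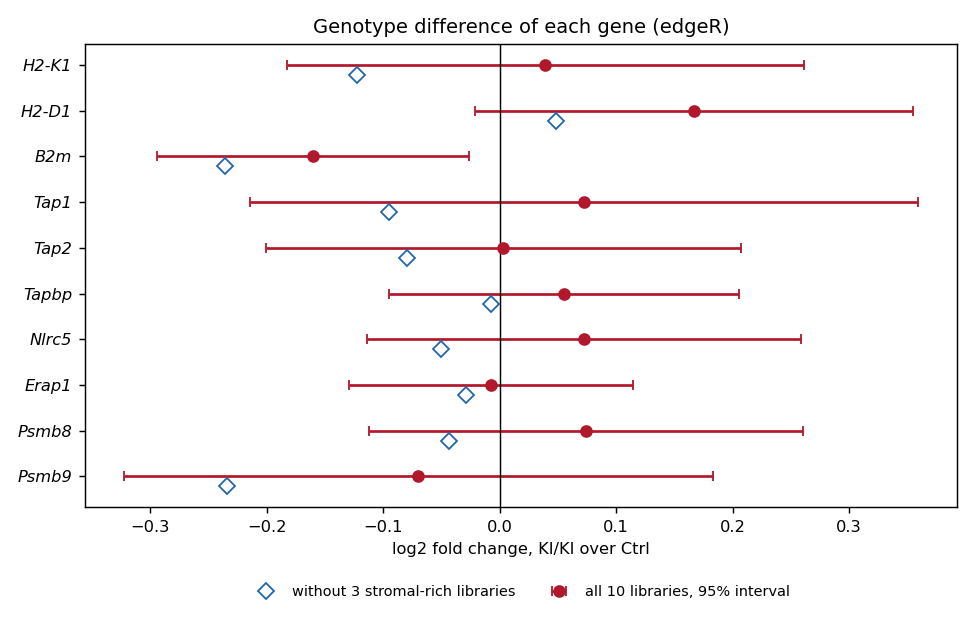
The log2 fold change of KI/KI over control (horizontal axis) for each of the 10 genes, with its 95% interval from edgeR (red, all 10 libraries) and the estimate without the 3 stromal-rich libraries (open blue diamonds). Among the red intervals, that of B2m alone leaves out 0, without adjustment for the number of genes tested. The diamonds of 9 genes lie below 0.

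The controls set most of the spread in these genes. The SD was lower in KI/KI than in controls for 10 of 10 genes, and the coefficient of variation had a median of 4.72% in KI/KI and 14.1% in controls. Over all tested genes these medians were 8.44% in KI/KI and 11.3% in controls, and 65.98% of genes varied less in KI/KI. Without the 3 stromal-rich libraries, leaving 4 KI/KI and 3 controls, the SD was higher in KI/KI for H2-K1, H2-D1 and Psmb8. It was 46.1 against 42.1 CPM for H2-K1, 266 against 187 CPM for H2-D1 and 2.90 against 2.86 CPM for Psmb8. For the other genes it stayed lower in KI/KI, by little for Tap2 (3.70 against 3.72 CPM). Among KI/KI libraries the coefficient of variation of Nlrc5, 2.32%, was below its Poisson counting error of 4.42% to 5.52%, and that of Psmb9, 4.86%, was within its counting error of 4.60% to 5.80%. Controls 1 and 4 were the lowest 2 controls for 7 of the 10 genes, the exceptions being Tap2, Tapbp and Erap1. Among all tested genes, 15.1% had these controls lowest. Control 1 was the lowest of all 10 libraries for 7 genes, and control 3 was the highest for 6.

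**Figure D3:**
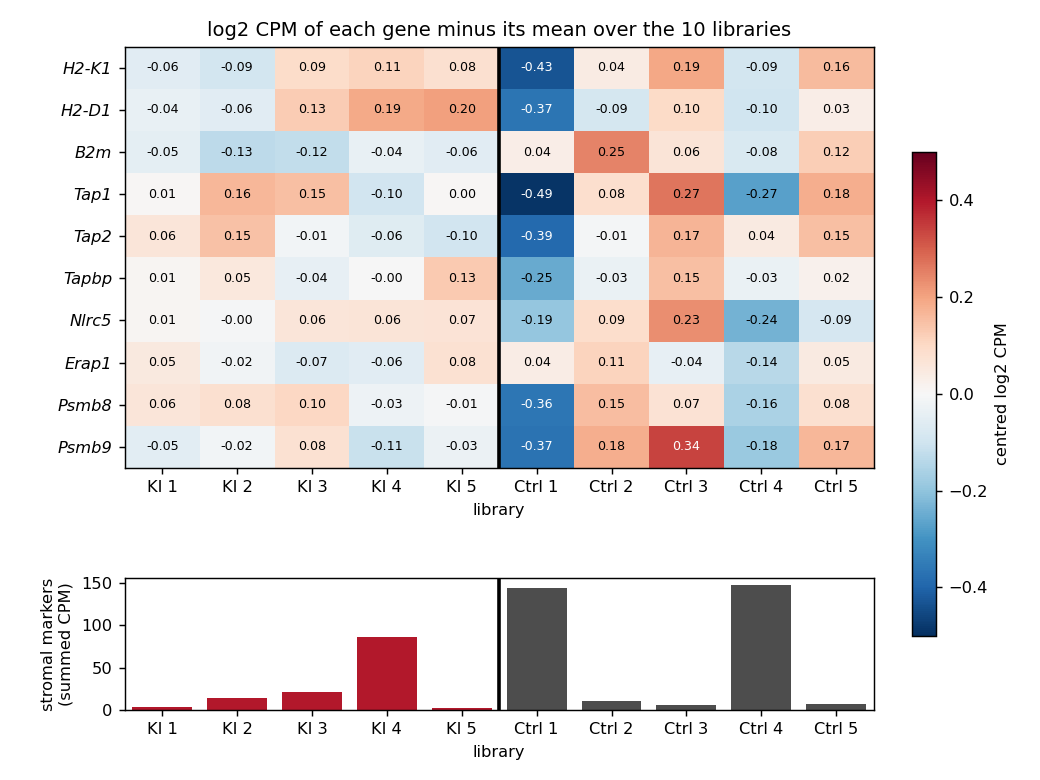
The upper map gives the log2 CPM of each gene (rows) minus its mean over the 10 libraries, with KI/KI libraries left and control libraries right (colour scale and printed values in log2). The lower bars give the summed CPM of 8 stromal fibroblast markers in the same libraries. Control 1 is low for most genes, from -0.49 for Tap1 to 0.04 for B2m and Erap1, and it and control 4 have the tallest stromal bars.

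The same 2 controls had the most stromal RNA, and their neutrophil and interferon values stood apart from those of the remaining controls. The summed level of 8 neutrophil markers was 3.58 to 19.0 CPM in KI/KI, 38.7 and 49.7 CPM in controls 1 and 4, and 6.24 to 13.2 CPM in the remaining controls. The mean log2 CPM of 20 interferon-stimulated genes was 3.26 to 3.63 in KI/KI, 3.01 and 3.21 in controls 1 and 4, and 3.60 to 3.90 in the remaining controls. KI/KI mouse 4 was also stromal-rich, but its interferon value was the highest of the KI/KI libraries, at 3.63. Its neutrophil sum was the highest of KI/KI too, at 19.0 CPM. Among KI/KI libraries it was the lowest for 3 of the 10 class I genes and the highest for 2. In bulk RNA, fewer cells of a type and less RNA per cell cannot be told apart. The part of stromal cells in the class I values was not tested.

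Without KI/KI mouse 4 and control mice 1 and 4, the direction turned for 6 of the 10 genes. The log2 fold change was then negative for 9 genes, with a median of -0.06, against 50.2% negative and a median of -0.00073 over all genes tested. Of the 10 genes, 0 had an adjusted p under 0.05 by edgeR, and 2 had an unadjusted p under 0.05. Of 12485 genes in this fit, 38, or 0.304%, passed the adjusted threshold, and 6.9% had an unadjusted p under 0.05. B2m averaged 2180 ± 64.0 CPM in 4 KI/KI libraries and 2567 ± 171 CPM in 3 controls, and its log2 fold change was -0.24 with an edgeR adjusted p of 0.305. Psmb9 averaged 19.5 ± 0.787 CPM in 4 KI/KI libraries and 22.9 ± 1.55 CPM in 3 controls, with -0.23 and an edgeR adjusted p of 0.503. For both genes all 4 KI/KI libraries were then below the lowest of the 3 controls, and 7.63% of the 12411 genes did not overlap between these libraries in either direction. H2-D1 alone stayed positive, at 0.05. The 3 libraries were dropped after the data were seen. Controls 1 and 4 were the lowest 2 controls for 7 of the 10 genes, so leaving them out raises the control mean of those genes. The turned signs and the lack of overlap are therefore not separate evidence of a difference.

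Ratios within a library compare genes that act as a pair or replace each other, and 6 were tested on the log2 scale with exact 2-sided permutation tests. With 5 against 5 libraries the smallest p this test can give is 0.00794. The heavy chain to light chain ratio, H2-K1 to B2m, was -1.72, -1.68, -1.50, -1.57 and -1.58 in KI/KI mice 1 to 5, against -2.18, -1.93, -1.59, -1.73 and -1.68 in control mice 1 to 5. All 5 KI/KI libraries lay above the control median, and the groups overlapped. The mean difference, KI/KI minus control, was 0.21 ± 0.11 (SE), with an exact permutation p of 0.0635 and 0.190 after Benjamini-Hochberg adjustment over the 6 ratios.

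The ratio of the heavy chains, H2-D1 to H2-K1, was 2.05, 2.07, 2.06, 2.11 and 2.16 in KI/KI mice 1 to 5, against 2.10, 1.90, 1.93, 2.02 and 1.91 in control mice 1 to 5. All KI/KI libraries were above 4 of the controls, and control 1 was among them. The difference was 0.12 ± 0.04 (SE), with an exact permutation p of 0.0476 and 0.190 after adjustment. Put as a share, H2-K1 made up 18.3% to 19.5% of the summed CPM of H2-K1 and H2-D1 in KI/KI and 18.95% to 21.1% in controls. These genes share long stretches of like sequence, as given above, and how their reads were split was not seen. The sum of both heavy chains, chosen after the values were seen and not tested, was 3437 to 4070 CPM in KI/KI and 2760 to 3892 CPM in controls. Its log2 ratio to B2m averaged 0.78 ± 0.11 in KI/KI and 0.48 ± 0.20 in controls (SD, n = 5 each).

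The ratio of each immunoproteasome subunit to the standard subunit it replaces did not differ past the threshold. Psmb8 to Psmb5 averaged 0.22 ± 0.13 in KI/KI and 0.03 ± 0.34 in controls (SD, n = 5 each), with an exact permutation p of 0.286 and 0.571 after adjustment. Psmb9 to Psmb6 averaged -3.07 ± 0.09 in KI/KI and -3.04 ± 0.30 in controls, with an exact p of 0.833 before and after adjustment. Psmb10, another immunoproteasome subunit, stood to Psmb7 at -0.38 ± 0.10 in KI/KI and -0.46 ± 0.36 in controls, with an exact p of 0.667 and 0.8 after adjustment. For Psmb8 and Psmb9, controls 1 and 4 lay well below the other 3 controls. Without the 3 stromal-rich libraries, the difference, KI/KI minus control, was -0.22 for Psmb9 to Psmb6 and 0.17 for H2-D1 to H2-K1. Each had an exact permutation p of 0.0286, the smallest that 4 against 3 libraries can give, and 0.0857 after adjustment over the 6 ratios. These 3 libraries were dropped after the data were seen. Among controls, 1 and 4 were the lowest for Psmb9 to Psmb6 and the highest for H2-D1 to H2-K1. Dropping them widens both differences, so these p-values are not separate evidence of a difference. For the other ratios the difference without these libraries was 0.11 for H2-K1 to B2m (exact p 0.371), 0.0058 for Psmb8 to Psmb5 (exact p 0.914), -0.11 for Psmb10 to Psmb7 (exact p 0.514) and -0.016 for Tap1 to Tap2 (exact p 0.8). The ratio of the transporter subunits, Tap1 to Tap2, averaged -0.46 ± 0.09 in KI/KI and -0.54 ± 0.17 in controls, with an exact p of 0.468 and 0.702 after adjustment.

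**Figure D4:**
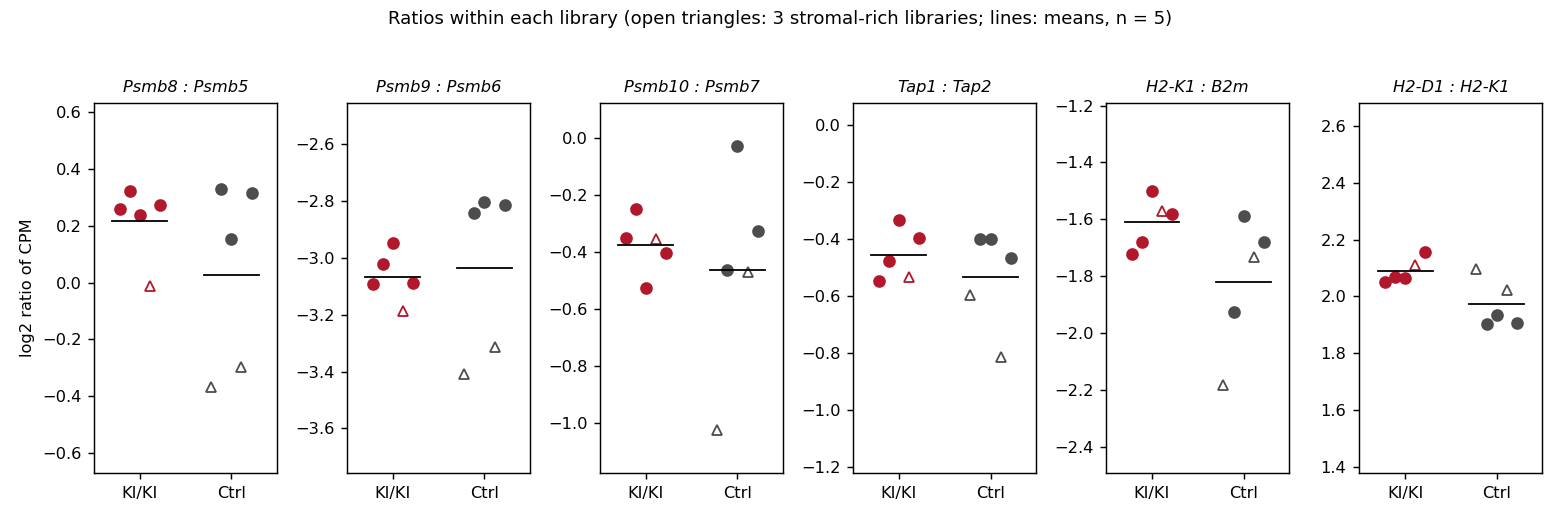
The 6 log2 ratios of CPM (vertical axes, each spanning the same height) in every KI/KI library (red, left) and control library (grey, right), with lines at the means of 5 libraries. Open triangles are the 3 stromal-rich libraries. The KI/KI libraries lie above the control median in all 5 cases for H2-K1 to B2m and for H2-D1 to H2-K1, and the groups overlap in all 6 ratios.

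The wider pathway was read from 10 further lists, of whose 120 genes 111 were tested. None passed the adjusted threshold in edgeR or DESeq2. In edgeR 8 of the 111 had an unadjusted p under 0.05, as did 6.21% of all tested genes in either direction. All 8 were lower in KI/KI, and 2.92% of all tested genes were lower at that p. DESeq2 also gave 8 at that p, and its share over all genes was not counted. Of the 8 loading chaperones, 3 had a positive and 5 a negative log2 fold change, with a median of -0.0090, and without the 3 stromal-rich libraries 7 were positive and 1 negative, with a median of 0.029. Calr, which encodes the chaperone calreticulin, averaged 1029 ± 32.5 CPM in KI/KI and 1074 ± 107 CPM in controls, and Pdia3, which encodes the ERp57 of the loading complex, averaged 700.2 ± 35.8 CPM in KI/KI and 743 ± 124 CPM in controls (SD, n = 5 each). Of the 8 peptidases that trim or destroy class I peptides outside the loading complex, 3 were positive and 5 negative, with a median of -0.0052, and without the 3 stromal-rich libraries 5 were positive and 3 negative, with a median of 0.023. Lnpep, an endosomal trimming enzyme, had the smallest p among them and averaged 168 ± 9.98 CPM in KI/KI and 156 ± 14.5 CPM in controls, with an edgeR adjusted p of 0.849.

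No subunit of the 20S core of the proteasome passed the threshold. All 14 tested subunits other than the immunoproteasome ones had a negative log2 fold change, with a median of -0.09, or 13 of 14 with upper-quartile scaling, and 51.7% of all tested genes were negative. These subunits share the same libraries, so their signs are not separate evidence. The mean log2 CPM of 20S subunits was 6.30 to 6.44 in KI/KI. It was 6.55, 6.49, 6.37, 6.45 and 6.33 in control mice 1 to 5, so controls 3 and 5 lay among the KI/KI values. The mean CPM was lower in KI/KI for 13 of the 14, the exception being Psmb3, at 46.01 CPM in KI/KI and 46.00 CPM in controls. Without the 3 stromal-rich libraries all 14 were again negative, with a median of -0.060. Without control 1 alone the median was -0.046, and with the stromal score as covariate it was -0.052 and 13 of 14 were negative. Without control 2 alone 12 of 14 were negative, with a median of -0.072. On the deposited log2 values, 12 of 14 were negative and the median was -0.036. Psma2, an alpha ring subunit, averaged 81.8 ± 6.12 CPM in KI/KI and 91.2 ± 10.13 CPM in controls, with an edgeR adjusted p of 0.805. Psmb5, the standard counterpart of Psmb8, averaged 77.5 ± 5.68 CPM in KI/KI and 83.5 ± 8.71 CPM in controls, with an edgeR adjusted p of 0.853.

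Among the 5 other genes of the immunoproteasome and of the proteasome activators, 4 were negative, with a median of -0.08. Psme2 encodes a subunit of the interferon-induced activator PA28. It was at 93.9 to 98.8 CPM in KI/KI, with a median of 96.4, against 100.01 to 109 CPM in controls, with a median of 103. The groups did not overlap, as for 1.32% of all tested genes, and the log2 fold change was -0.10 ± 0.04 (SE) with an edgeR adjusted p of 0.748. Psme4, which encodes the activator PA200, averaged 88.1 ± 4.55 CPM in KI/KI and 98.5 ± 8.34 CPM in controls, with an edgeR adjusted p of 0.737. Psmb10 averaged 54.7 ± 4.03 CPM in KI/KI and 55.1 ± 9.94 CPM in controls.

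Transcription factors of class I genes and the interferon-gamma receptor path were split evenly, with 9 of 18 genes positive and a median of -0.0030. Rfxap, a subunit of the RFX complex that binds class I and class II promoters, had the smallest p of the 111 genes. It was at 9.80 to 11.4 CPM in KI/KI, with a median of 10.8, against 12.5 to 13.4 CPM in controls, with a median of 12.7. The groups did not overlap, as for 1.32% of all tested genes. Its log2 fold change was -0.27 ± 0.07 (SE), with an edgeR unadjusted p of 0.00180 and an edgeR adjusted p of 0.426. Ifngr1, the receptor subunit that binds interferon-gamma, averaged 133 ± 26.2 CPM in KI/KI and 154 ± 15.8 CPM in controls, with an edgeR adjusted p of 0.819.

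Of the 23 non-classical and class I-like heavy chains, 15 were tested, 6 positive and 9 negative, with a median of -0.03. Without the 3 stromal-rich libraries 14 of the 15 were negative, with a median of -0.14. H2-T24 averaged 26.9 ± 1.90 CPM in KI/KI and 31.2 ± 4.51 CPM in controls, with an unadjusted p of 0.0402 and an edgeR adjusted p of 0.787. Fcgrt, which encodes the neonatal Fc receptor, averaged 30.8 ± 5.04 CPM in KI/KI and 34.1 ± 4.60 CPM in controls. Hfe, which encodes a class I-like protein of iron balance, averaged 43.2 ± 3.15 CPM in KI/KI and 45.6 ± 0.952 CPM in controls. The H2-Q and H2-T genes belong to a family of similar genes, and how reads were shared among them was not tested, so their levels are uncertain.

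Of the 14 genes of cross-presentation, the route by which engulfed proteins reach class I, 9 were positive and 5 negative, with a median of 0.03. Wdfy4, a relative of WDFY3 that cross-presenting dendritic cells of mice need, averaged 125 ± 9.03 CPM in KI/KI and 121 ± 7.62 CPM in controls, with an edgeR adjusted p of 0.911, and was named after its values were seen. Batf3, a transcription factor of cross-presenting dendritic cells, averaged 3.95 ± 0.577 CPM in KI/KI and 5.06 ± 0.828 CPM in controls, with an unadjusted p of 0.0296 and an edgeR adjusted p of 0.744. Cybb, the catalytic subunit of the phagosome NADPH oxidase, averaged 1353 ± 167 CPM in KI/KI and 1534 ± 149 CPM in controls, with an edgeR adjusted p of 0.799.

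Class I turnover was read from 8 tested genes, 3 positive and 5 negative, with a median of -0.0036. Without the 3 stromal-rich libraries 5 were positive and 3 negative, with a median of 0.011. Marchf8, a membrane ubiquitin ligase of surface proteins, averaged 81.6 ± 3.43 CPM in KI/KI and 90.01 ± 3.77 CPM in controls. Its log2 fold change was -0.14 ± 0.05 (SE), with an unadjusted p of 0.0130 and an edgeR adjusted p of 0.700. Sting1, an innate DNA sensing adaptor placed on this list, averaged 48.4 ± 3.14 CPM in KI/KI and 55.1 ± 4.99 CPM in controls, with an edgeR adjusted p of 0.700. Its part in class I turnover was not tested.

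Of the 20 interferon-stimulated genes, 7 were positive and 13 negative, with a median of -0.06. Gbp2, an interferon-induced GTPase, averaged 23.4 ± 2.59 CPM in KI/KI and 29.0 ± 5.51 CPM in controls, with an unadjusted p of 0.0297 and an edgeR adjusted p of 0.744. Rsad2, which encodes the antiviral protein viperin, averaged 25.9 ± 6.47 CPM in KI/KI and 22.3 ± 4.70 CPM in controls. Without the 3 stromal-rich libraries all 20 were negative, with a median of -0.26, and none passed the adjusted threshold. Controls 1 and 4, left out there, were the controls with the lowest mean level of these genes. Leaving out control 3 alone, 6 of the 20 were negative and the median was 0.07.

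**Figure D5:**
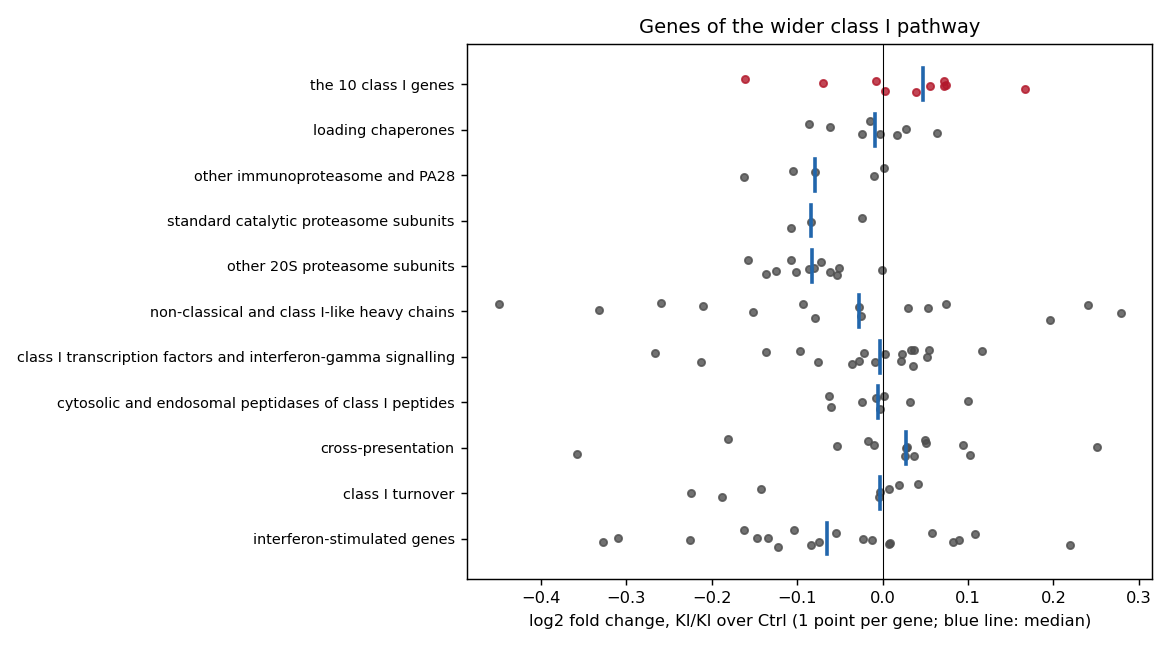
The log2 fold change of KI/KI over control (horizontal axis, edgeR, all 10 libraries), 1 point per tested gene, for the 10 class I genes (red, top) and 10 lists of the wider pathway (grey). Blue lines are list medians, which run from -0.08 for the standard catalytic and other 20S proteasome subunits to 0.05 for the 10 class I genes.

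Genes whose levels followed the 10 class I genes over the 10 libraries were named by their correlation, as a description, since all share the same libraries and depth. The genes closest to the mean of the 10 were Tgtp2 (Pearson's r 0.97, Spearman's rho 0.88), Rnf180 (0.96 and 0.79), Adamts10 (0.95 and 0.83), Uba7 (0.94 and 0.85) and Mx2 (0.94 and 0.90). Tgtp2 and Mx2 encode interferon-induced GTPases, and Uba7 encodes the enzyme that activates ISG15. Levels were low for Tgtp2, at a mean of 4.11 CPM in KI/KI and 4.27 CPM in controls, and for Mx2, at 1.85 and 2.23 CPM. Whether the closest genes, Rnf180 and Adamts10 among them, share a theme was not tested. H2-T23, which encodes the non-classical heavy chain Qa-1, was closest to H2-K1 (0.95 and 0.89), and its transcripts are among those that match H2-K1. For B2m the closest gene was Gpr176 (0.93 and 0.96) and for Nlrc5 it was Rassf5 (0.97 and 0.95). Next to B2m came Ash1l (0.93 and 0.88) and Ly9 (0.93 and 0.88), and next to Nlrc5 came Wdr62 (0.93 and 0.90) and Ifit1 (0.91 and 0.93).

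The deposited log2 values gave another view of the same libraries. The difference of KI/KI minus control in them was -0.15 for B2m and 0.11 for H2-D1. For Nlrc5 it was -0.03, opposite in sign to the 0.07 from the counts. Erap1 spanned 0.50 over the 10 libraries in the deposited values but 0.25 in log2 CPM from the counts, while the other 9 genes spanned less in the deposited values. The SD over libraries of the gap between both scales was 0.15 for Erap1 and for Psmb9, against a median of 0.07 over 8105 genes that averaged 10 CPM or more, and 7.54% of those genes had a gap as wide as Erap1. The cause of the gap was not tested.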

How the data were processed

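Poly(A)+ RNA of macrophages from 5 hWDFY3KI/KI and 5 control mice was sequenced. Salmon 1.6.0, DESeq2 1.34.0 and MultiQC, and GRCm39 and mm10 with no role, are named in the submitters' processing notes. Not given in the sources used here are the annotation, the use of strand and the summing of transcripts. One deposited table has an estimated count per gene, rounded here to whole numbers. The other deposited table has log2 values for 14409 gene IDs, taken from its name to be regularized logs, a scale which shrinks low counts and can narrow differences.

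Gene symbols came from the symbol column of that table and GENCODE M21. edgeR 4.0.16 (R 4.3.3) was run with TMM factors, filterByExpr (minimum count 10, minimum total 15), robust dispersions and the quasi-likelihood F-test over all 10 libraries, with Benjamini-Hochberg adjustment over 12411 genes and a threshold of 0.05. The biological coefficient of variation was 15.6%. CPM used scaled library sizes, and log2 CPM a prior count of 2. The SE is the size of the log2 fold change divided by the square root of F. Ratios were tested by exact 2-sided permutation over 252 splits. The fit was tested on simulated data. The smallest count of the 10 genes in a library was 297. Poisson counting error in the KI/KI libraries was 4.42% to 5.52% of the level for Nlrc5 and 4.60% to 5.80% for Psmb9, and at most 4.02% for the other 8 genes. P-values rest on the spread among mice, each library being labelled as 1 mouse.

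The 10 genes and the lists were chosen with earlier results of these data known. Named beside the 10 were, per list, up to 4 genes with the smallest p, the partner genes of the ratios, and the genes with the highest correlation. The text gives some of these; others named are said to be chosen after seeing values. Alternatives were DESeq2 1.42.0, limma-voom and limma-trend (limma 3.58.1), upper-quartile and RLE factors, other filters, no robust estimation, a replicate block, and each library left out in turn. Fits that drop the 3 stromal-rich libraries, or take a stromal score as covariate, were added after seeing the data.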

Additional observations from a re-analysis of the deposited data

Results flagged for a closer look

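In 1 of 32 groups of 5 libraries examined (10 genes and 6 ratios in each genotype), a library stood far from the others. The log2 ratio of Psmb8 to Psmb5 was -0.01 in KI/KI mouse 4 and 0.24 to 0.32 in the other KI/KI libraries. Its gap to the nearest library was 0.745 of the group's range, above the critical value of Dixon's test of 0.71 for 5 libraries. Chance gives such a value in about 1 in 20 groups. KI/KI mouse 4 was also the KI/KI library with the most stromal RNA, at 86.5 CPM over the stromal markers, and controls 1 and 4, with 145 and 148 CPM, had ratios of -0.37 and -0.30. The cause was not tested.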

How the results depend on the processing

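The count of class I genes past the threshold was 0 in all 21 alternatives, as was that of the 111 other pathway genes. Over all genes, 10 passed in edgeR, 49 in DESeq2, 38 without the 3 stromal-rich libraries, and 6 to 23 when each library was left out. B2m was negative and H2-D1 positive in all 21, at -0.24 to -0.12 and 0.05 to 0.21, with adjusted p of 0.305 to 0.987 and 0.584 to 0.987. Without the 3 libraries the sign turned for H2-K1 (-0.12), Tap1 (-0.10), Tap2 (-0.080), Tapbp (-0.0077), Nlrc5 (-0.050) and Psmb8 (-0.043). It also turned for Nlrc5 on the deposited log2 values (-0.027), and for Tap2 with no filter (-0.00054) and with the stromal covariate (-0.033). Leaving out 1 library gave -0.047 to 0.095 for H2-K1, -0.022 to 0.15 for Tap1, -0.079 to 0.047 for Tap2, -0.040 to 0.021 for Erap1 and -0.15 to 0.011 for Psmb9.

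Among the ratios, leaving out 1 library gave -0.12 to 0.028 for Psmb9 to Psmb6, with a turned sign without control 2, 3 or 5, -0.054 to 0.19 for Psmb10 to Psmb7, 0.12 to 0.27 for H2-K1 to B2m and 0.10 to 0.15 for H2-D1 to H2-K1. The exact p of H2-K1 to B2m was 0.0159 without control 3 and 0.0476 without control 5, and that of H2-D1 to H2-K1 ran from 0.00794 to 0.0873 and missed 0.05 in 7 of 10 cases. Without the 3 libraries, Psmb9 to Psmb6 was -0.22, Psmb10 to Psmb7 -0.11, Tap1 to Tap2 -0.016, H2-K1 to B2m 0.11, Psmb8 to Psmb5 0.0058 and H2-D1 to H2-K1 0.17. Causes were not tested, and fewer libraries also change the precision.

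With the replicate number as a block, 12 genes and 0 class I genes passed, and H2-D1 was 0.17 with an adjusted p of 0.584. Same-numbered libraries correlated at -0.20 to 0.51 over 5 pairs, and 2 of 5 KI/KI libraries correlated best with their own number, so the numbers were not taken as pairs.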
